A study of Mus musculus with 12 samples.

Results

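Before any auxin was added, cells with a degron on JARID2 differed widely from cells with the same degron on SUZ12 or MTF2. The lines are of mouse embryonic stem cells and followed the same protocol of differentiation towards cardiac precursors. The labels do not say whether the lines were differentiated in the same run. The comparison takes the 6 untreated libraries of the series' 12: 2 of the AID-JARID2, Tir1 line, 2 of the SUZ12-AID, Tir1 line and 2 of the MTF2-AID, Tir1 line. They were chosen by their labels alone, as untreated libraries of each genotype, and the other 6 libraries are the same lines grown with auxin. All lines are of C57BL/6 background, all express Tir1 and each has a degron-tagged PRC2 subunit, so no untagged line enters the comparison. Each subunit is represented by 1 line, and an effect of the tag cannot be told apart from a difference between clones or cultures. Cells were aggregated as embryoid bodies for 48 h, reaggregated for 43 h with Activin A, BMP4 and 5 ng/mL VEGF, and plated as a monolayer for 32 h with 5 ng/mL VEGF, 10 ng/mL basic FGF and 25 ng/mL FGF10. PolyA RNA was sequenced as stranded libraries. The design text calls the 2 replicates biological but does not say whether they come from separate differentiations, so the p-values measure the spread between these samples, which may be technical.

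Polycomb repressive complex 2 (PRC2) methylates lysine 27 of histone H3 and holds many developmental genes silent. SUZ12 is part of its core, whereas MTF2 and JARID2 are accessory subunits of alternative forms of the complex. The auxin-inducible degron (AID) marks a tagged protein for destruction by the plant receptor Tir1 once auxin is present. In the embryo, epiblast cells that receive WNT and NODAL signals enter the primitive streak, turn on T-box and homeobox genes such as T, Eomes and Mixl1, and leave as mesoderm. The first mesoderm cells to leave express Mesp1 and give rise to heart, vessels, blood and extraembryonic mesoderm, and cells leaving later form paraxial mesoderm and the trunk.

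The table gives TPM, a transcript level scaled for gene length and library size, and 13761 autosomal genes reached at least 1 TPM in at least 2 of the 6 untreated libraries. Differences are on the log2(TPM + 1) scale, AID-JARID2 minus the mean of the other 2 lines, with a standard error (SE) and an adjusted p from limma with Benjamini-Hochberg adjustment over these genes. A gene was called when its adjusted p was under 0.05. Recovered reads ran between 12031894 and 13279806 in AID-JARID2, 16575968 and 17171770 in SUZ12-AID, and 10138285 and 10802100 in MTF2-AID libraries. The median gene differed between replicates by 0.0917 on the log2 scale in AID-JARID2, 0.194 in SUZ12-AID and 0.0967 in MTF2-AID. In SUZ12-AID the gap between the replicates followed transcript length, with replicate 1 minus replicate 2 at 0.07 (median log2) in the shortest of 4 length groups of genes and -0.351 in the longest, against 0.015 and -0.052 in AID-JARID2 and 0.009 and -0.043 in MTF2-AID. The median AID-JARID2 minus SUZ12-AID difference also followed length, from -0.016 in the shortest group to 0.137 in the longest. Against MTF2-AID it went from 0.023 to -0.059, and against the mean of both lines from 0.008 to 0.042. The part of the replicate gap in the results for long transcripts was not tested, and long genes such as Fn1 and Kdr carry a wide spread in SUZ12-AID below.

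The tagged genes were expressed in every library, and a tag on the protein need not change the messenger RNA. Suz12 had 64.6 and 69.9 TPM in the AID-JARID2 libraries, against 113 and 127 TPM in SUZ12-AID and 60.9 and 63 TPM in MTF2-AID libraries. SUZ12-AID cells thus held the higher Suz12 level, with a log2 difference of -0.82 for AID-JARID2 against SUZ12-AID (adjusted p = 1.99e-05) and -0.94 for MTF2-AID against SUZ12-AID (adjusted p = 0.000175). Jarid2 had 45.3 and 43.5 TPM in AID-JARID2, against 26 and 34.3 TPM in SUZ12-AID and 33.5 and 34.7 TPM in MTF2-AID. Both AID-JARID2 libraries lay above the other 4 (log2 difference 0.46 ± 0.10 SE, adjusted p = 0.00546), and the call was lost without AID-JARID2 replicate 1 (0.43, adjusted p = 0.0507). Mtf2 had 28.5 and 31.6 TPM in AID-JARID2, against 21.3 and 26.7 TPM in SUZ12-AID and 22.4 and 21.7 TPM in MTF2-AID (log2 difference 0.37 ± 0.09 SE, adjusted p = 0.0092), and its call was lost without AID-JARID2 replicate 2 (0.30, adjusted p = 0.111).

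AID-JARID2 cells differed from the other lines at a large share of all genes. Of the 13761 genes, 5110 (37.1%) were called, 2670 (19.4%) higher and 2440 (17.7%) lower in AID-JARID2. At least a 2-fold difference was seen at 391 called genes (2.84%) that were higher and 551 (4%) that were lower, counts that moved to 155 and 147 with a pseudocount of 5 and to 589 and 888 with a pseudocount of 0.1. The median of all genes was 0.03. Both AID-JARID2 libraries lay above the other 4 at 3644 genes (26.5%) and below them at 2739 (19.9%). With AID-JARID2 replicate 2 left out 3030 genes were called, and 3397 without replicate 1. Lists and members were chosen with earlier results of these data known, so the counts below describe the lists and are no independent support. A gene under 1 TPM in both AID-JARID2 libraries was tested only through the other lines, which favours a lower call. In the same way, a gene under 1 TPM in all libraries of the other lines was tested only through AID-JARID2, which favours a higher call. The share called in each direction is the background against which every count of list members below should be read.

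The list that stood furthest from this background was that of the primitive streak and nascent mesoderm. Of its 19 members tested, 18 were called higher in AID-JARID2 and none lower, with a median log2 difference of 1.96. Their summed level was 2026 and 1951 TPM in the AID-JARID2 libraries, against 386 and 391 TPM in SUZ12-AID and 360.3 and 371 TPM in MTF2-AID libraries. The AID-JARID2 libraries therefore held several times the streak transcript level of the other lines. In such bulk RNA, more cells of a type and more RNA per cell cannot be told apart. The members were higher against each line alone, with 18 of 19 called against SUZ12-AID, where 16.9% of all genes were called higher, and 18 of 19 against MTF2-AID, where 17.3% were.

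T (Brachyury, chromosome 17, 8434423 to 8442496, plus strand, in GENCODE vM21 on mm10), the T-box factor that defines the streak, had 307 and 297 TPM in the AID-JARID2 libraries, against 34.2 and 32.6 TPM in SUZ12-AID and 32.2 and 28.5 TPM in MTF2-AID libraries. Every AID-JARID2 library lay far above the other 4, and the mean level was 9.47 times that of the other lines (log2 difference 3.21 ± 0.09 SE, adjusted p = 9.4e-09). Mixl1 (chromosome 1, 180693043 to 180697034, minus strand), a homeobox factor of the streak, had 167 and 176 TPM in AID-JARID2, against 9.69 and 7.72 TPM in SUZ12-AID and 9.17 and 9.41 TPM in MTF2-AID (log2 difference 4.11 ± 0.12 SE, adjusted p = 1.91e-08). Eomes (chromosome 9, 118478212 to 118486132, plus strand), the T-box factor needed for mesoderm and definitive endoderm, had 149 and 144 TPM in AID-JARID2, against 10.1 and 8.58 TPM in SUZ12-AID and 10.6 and 11.5 TPM in MTF2-AID (log2 difference 3.72 ± 0.11 SE, adjusted p = 1.91e-08). Mesp1 (chromosome 7, 79792241 to 79793788, minus strand), the basic helix-loop-helix factor of the earliest cardiovascular progenitors, had 461 and 429 TPM in AID-JARID2, against 58.8 and 46.9 TPM in SUZ12-AID and 37.9 and 41 TPM in MTF2-AID (log2 difference 3.26 ± 0.12 SE, adjusted p = 7.15e-08). For all of these genes the groups were far apart, and SUZ12-AID and MTF2-AID libraries lay close to each other.

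Other streak genes rose by less but with the groups still apart. Evx1, a homeobox factor of the posterior streak, had 169 and 170.3 TPM in AID-JARID2, against 23.5 and 24.2 TPM in SUZ12-AID and 19.9 and 28.5 TPM in MTF2-AID (log2 difference 2.78 ± 0.12 SE, adjusted p = 1.18e-07). Fgf8, the growth factor that cells need to migrate away from the streak, had 135 and 125 TPM in AID-JARID2, against 23 and 21.2 TPM in SUZ12-AID and 19.3 and 14.8 TPM in MTF2-AID (log2 difference 2.68 ± 0.11 SE, adjusted p = 8.99e-08). Nodal, the TGF-beta family ligand that induces the streak, had 22.4 and 18.3 TPM in AID-JARID2, against 4.32 and 3.1 TPM in SUZ12-AID and 2.77 and 3.09 TPM in MTF2-AID (log2 difference 2.31 ± 0.16 SE, adjusted p = 2.33e-06). These 3 genes were each several times higher in AID-JARID2. Snai1, the zinc-finger repressor of E-cadherin in ingressing cells, had 151 and 143 TPM in AID-JARID2, against 63.6 and 65.7 TPM in SUZ12-AID and 65.1 and 64.2 TPM in MTF2-AID (log2 difference 1.17 ± 0.06 SE, adjusted p = 6.99e-07). Of genes used by nascent mesoderm, Lhx1 rose with a log2 difference of 1.48, the apelin receptor gene Aplnr with 1.46 and Pdgfra with 1.34. Wnt3, a ligand gene of the posterior epiblast and streak, rose by 1.02. The exception was Gsc, a homeobox gene of the anterior streak and organizer, at 18 and 16.7 TPM in AID-JARID2, against 19.7 and 17.9 TPM in SUZ12-AID and 16.9 and 19 TPM in MTF2-AID, where the groups overlapped (log2 difference -0.08, adjusted p = 0.508).

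**Figure D1:**
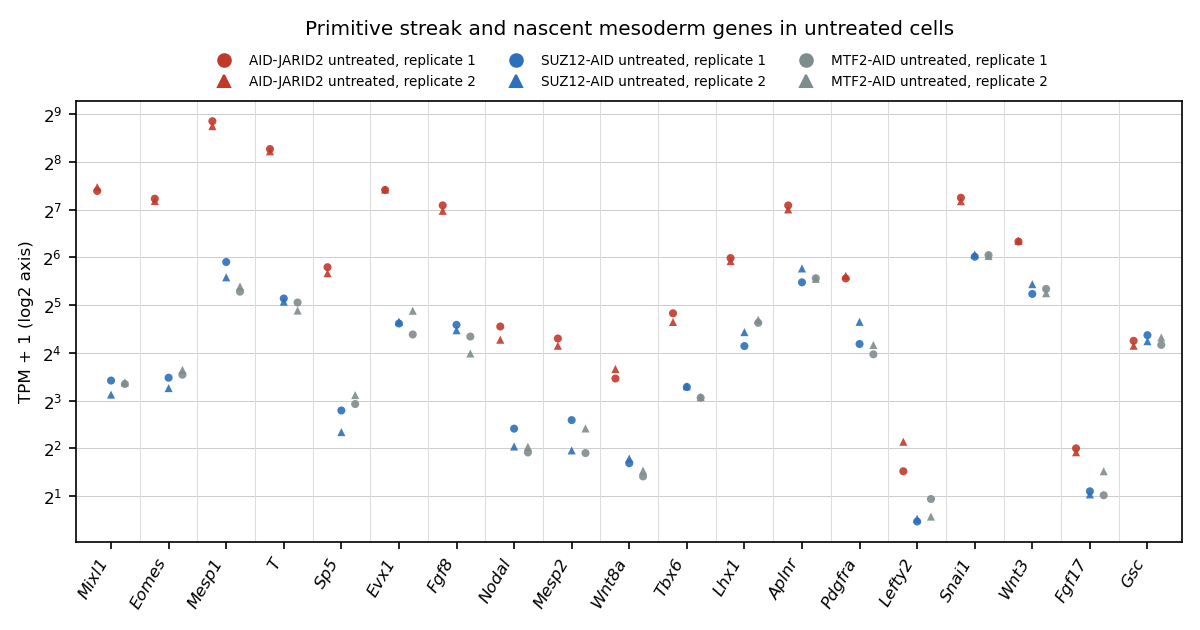
Levels of primitive streak genes in the 6 untreated libraries, in TPM + 1 on a log2 axis, 1 point a library, with AID-JARID2 left of SUZ12-AID and MTF2-AID for each gene. For T the AID-JARID2 points lie at 307 and 297 TPM, above all others, which lie between 28.5 and 34.2 TPM, and for Gsc the groups overlap.

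Several of these genes, T and Sp5 among them, are known in mouse as direct targets of WNT signalling through TCF and LEF factors, and most of the WNT list was higher in AID-JARID2 as well. The 250 bases before the start of 3 genes are therefore shown, from RefSeq on GRCm38.p6, 5′ to 3′ on the gene's strand, with every match to the TCF/LEF core CTTTGA or CTTTGT on either strand in capitals (TCAAAG or ACAAAG when on the other strand). Sp5 (chr2:70474673-70474922, plus strand), a zinc-finger factor and WNT target, holds 4 matches. Msgn1 (chr12:11208949-11209198, minus strand), a paraxial mesoderm factor described below, holds 3, and T (chr17:8434173-8434422, plus strand) holds 1. The RefSeq start of Msgn1 lies within the gene as GENCODE vM21 gives it (chromosome 12, 11208360 to 11208972), so the last bases of its window do too, but none of its matches.
Sp5: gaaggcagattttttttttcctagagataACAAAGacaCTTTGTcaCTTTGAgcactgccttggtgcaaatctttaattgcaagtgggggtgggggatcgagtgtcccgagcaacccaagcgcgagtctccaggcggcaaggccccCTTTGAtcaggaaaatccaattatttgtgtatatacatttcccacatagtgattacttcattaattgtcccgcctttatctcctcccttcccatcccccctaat
Msgn1: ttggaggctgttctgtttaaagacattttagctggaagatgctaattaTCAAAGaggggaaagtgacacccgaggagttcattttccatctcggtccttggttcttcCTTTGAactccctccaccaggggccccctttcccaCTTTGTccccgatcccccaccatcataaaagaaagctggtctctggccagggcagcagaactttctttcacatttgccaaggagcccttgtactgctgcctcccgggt
T: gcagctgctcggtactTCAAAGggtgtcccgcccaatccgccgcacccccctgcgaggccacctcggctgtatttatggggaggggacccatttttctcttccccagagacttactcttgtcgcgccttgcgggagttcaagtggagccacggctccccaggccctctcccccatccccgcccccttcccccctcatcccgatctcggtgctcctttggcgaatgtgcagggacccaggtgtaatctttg
In Sp5 the matches begin 221, 212, 204 and 104 bases before the start, and in T the single match begins 234 bases before it. Such matches are common: 9075 of 32851 RefSeq windows of this length (27.6%) hold at least 1, and 255 (0.8%) hold 3 or more. Of the 13 streak list members with a window, 5 hold a match (38.5%), against 8319 of 27025 genes overall (30.8%). A match is a description of these letters and not a binding site.

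The WNT pathway list rose nearly as uniformly. Of 19 members tested, 17 were called higher and none lower, with a median log2 difference of 0.99. Sp5, whose promoter is shown above, had 54.5 and 49.8 TPM in AID-JARID2, against 5.92 and 4.06 TPM in SUZ12-AID and 6.61 and 7.66 TPM in MTF2-AID (log2 difference 2.94 ± 0.23 SE, adjusted p = 6.5e-06). Axin2, the feedback inhibitor most used as a WNT readout, had 101.2 and 101.1 TPM in AID-JARID2, against 43.2 and 51.9 TPM in SUZ12-AID and 57.9 and 59.3 TPM in MTF2-AID (log2 difference 0.93 ± 0.07 SE, adjusted p = 5.14e-06). Notum, a secreted feedback inhibitor, had 15.8 and 17.9 TPM in AID-JARID2, against 4.36 and 4.88 TPM in SUZ12-AID and 3.65 and 3.9 TPM in MTF2-AID (log2 difference 1.78). The transcription factor genes Lef1 and Tcf7 had log2 differences of 0.59 and 0.59. All of these libraries were apart between AID-JARID2 and the others. The ligand genes Wnt8a (1.96) and Wnt2b (2.10) rose too. Of the 17 members called higher, 16 had both AID-JARID2 libraries above all others. The exception was Dkk1, at 37.4 and 38.2 TPM in AID-JARID2, against 18.4 and 17.7 TPM in SUZ12-AID and 42.2 and 42.1 TPM in MTF2-AID, so it was higher than SUZ12-AID only.

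NODAL signalling genes rose in 5 of 8 members with none lower. The co-receptor gene Tdgf1 (Cripto) led them and is described with the pluripotency genes. Cfc1 (Cryptic), the related co-receptor, had 104 and 102 TPM in AID-JARID2, against 78.4 and 71.1 TPM in SUZ12-AID and 42.5 and 34.4 TPM in MTF2-AID (log2 difference 0.93 ± 0.12 SE, adjusted p = 0.000188). Lefty2, the secreted NODAL inhibitor, was low throughout at 1.87 and 3.4 TPM in AID-JARID2, against 0.382 and 0.437 TPM in SUZ12-AID and 0.915 and 0.484 TPM in MTF2-AID (log2 difference 1.20 ± 0.19 SE, adjusted p = 0.000684). Both genes had their AID-JARID2 libraries above the other 4. Foxh1, the partner of SMAD2 and SMAD3, was high and close between lines (361 and 343 TPM in AID-JARID2, against 322 and 316 TPM in SUZ12-AID and 338 and 334 TPM in MTF2-AID, adjusted p = 0.0909).

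Genes of the BMP and FGF lists did not move one way. Of 17 BMP members, 5 were higher and 4 lower, and of 17 FGF members 8 were higher and 5 lower. Fst, which codes for follistatin, an activin and BMP antagonist, stood out with 57.3 and 54.9 TPM in AID-JARID2, against 4.53 and 4.22 TPM in SUZ12-AID and 4.31 and 4.02 TPM in MTF2-AID (log2 difference 3.44 ± 0.12 SE, adjusted p = 3.83e-08). The ligand gene Bmp4 rose by 0.36 and the BMP target Id2 fell by 1.15, to 59.5 and 51.9 TPM in AID-JARID2, against 121 and 138 TPM in SUZ12-AID and 125 and 113 TPM in MTF2-AID. In the FGF list, the ligand genes Fgf8, Fgf10, Fgf5 and Fgf4 and the receptor gene Fgfr1 rose, whereas the feedback inhibitor gene Spry1 fell to 19 and 16.1 TPM in AID-JARID2, against 46.9 and 54.5 TPM in SUZ12-AID and 90.1 and 79.6 TPM in MTF2-AID (log2 difference -1.85 ± 0.09 SE, adjusted p = 2.15e-07). Dusp6, a second FGF feedback gene, was not called (adjusted p = 0.0525) and its groups overlapped.

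Genes of the caudal streak and of its retinoic acid boundary showed a split. Of 10 caudal members, 7 were higher and 2 lower. Of 13 retinoic acid pathway members, 6 were higher and 3 lower. Cyp26a1, which degrades retinoic acid in the tail end of the embryo, had 122 and 127 TPM in AID-JARID2, against 12.6 and 12.6 TPM in SUZ12-AID and 25.1 and 25.4 TPM in MTF2-AID (log2 difference 2.73 ± 0.06 SE, adjusted p = 4.1e-09). Rspo3, a WNT enhancer, had 58 and 60.9 TPM in AID-JARID2, against 16.1 and 13.3 TPM in SUZ12-AID and 24.5 and 28.1 TPM in MTF2-AID (log2 difference 1.55 ± 0.11 SE, adjusted p = 2.84e-06). Both genes were apart from the other lines. Cdx2, a caudal homeobox factor that is also made in trophoblast and allantois, went the other way with 126 and 116 TPM in AID-JARID2, against 234 and 212 TPM in SUZ12-AID and 427 and 439 TPM in MTF2-AID (log2 difference -1.36 ± 0.10 SE, adjusted p = 4.59e-06). Cdx1 rose by 1.52, so these 2 caudal factors moved in opposite directions. Cdx4, on X and so not tested, lay on the side of Cdx1. It had 22.5 and 26.3 TPM in AID-JARID2, against 3.3 and 4.95 TPM in SUZ12-AID and 0.632 and 0.601 TPM in MTF2-AID. Nkx1-2, a marker of neuromesodermal progenitors, had 13.4 and 13.2 TPM in AID-JARID2, against 10.0 and 13.4 TPM in SUZ12-AID and 51 and 60.6 TPM in MTF2-AID, so AID-JARID2 and SUZ12-AID overlapped and MTF2-AID lay above both. Aldh1a2, which makes retinoic acid in mesoderm, was 5.87 and 6.48 TPM in AID-JARID2, against 1.37 and 1.16 TPM in SUZ12-AID and 2.22 and 2.44 TPM in MTF2-AID (log2 difference 1.38 ± 0.15 SE, adjusted p = 5.17e-05).

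Epiblast and pluripotency genes moved in both directions. Of 18 core and naive members, 8 were higher and 6 lower, and of 14 formative and primed epiblast members, 6 were higher and 3 lower. The members that rose include genes active in the epiblast and the streak, and the RNA-binding protein gene Lin28a (log2 difference 0.21) and the zinc-finger factor gene Sall4 (1.01). Tdgf1 (chromosome 9, 110939603 to 110946158, minus strand) had 377 and 387 TPM in the AID-JARID2 libraries, against 25.9 and 26.2 TPM in SUZ12-AID and 27.8 and 34 TPM in MTF2-AID libraries (log2 difference 3.71 ± 0.10 SE, adjusted p = 1.26e-08). Nanog, active in the epiblast and proximal streak, had 32.9 and 34.6 TPM in AID-JARID2, against 4.43 and 6.14 TPM in SUZ12-AID and 2.78 and 3.82 TPM in MTF2-AID (log2 difference 2.75 ± 0.13 SE, adjusted p = 2.44e-07). Pou5f1 (OCT4) had 335 and 316 TPM in AID-JARID2, against 113 and 90.5 TPM in SUZ12-AID and 107 and 109 TPM in MTF2-AID (log2 difference 1.63 ± 0.09 SE, adjusted p = 6.99e-07). In all 3 the AID-JARID2 libraries lay far above the others, and OCT4 RNA stayed above 90 TPM in every line. Sox2, which is shut down in mesoderm, was low in all lines at 4.45 and 5.69 TPM in AID-JARID2, against 2.63 and 3.64 TPM in SUZ12-AID and 7.35 and 7 TPM in MTF2-AID and was not called (adjusted p = 0.751).

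Primed epiblast genes that rose included Fgf5, at 4.46 and 3.53 TPM in AID-JARID2, against 0.485 and 0.556 TPM in SUZ12-AID and 0.402 and 0.383 TPM in MTF2-AID (log2 difference 1.77 ± 0.14 SE, adjusted p = 6.79e-06), and Otx2, a factor of the anterior epiblast, at 9.83 and 9.84 TPM in AID-JARID2, against 2.84 and 3.44 TPM in SUZ12-AID and 4.02 and 5.28 TPM in MTF2-AID (log2 difference 1.17 ± 0.11 SE, adjusted p = 2.76e-05). Both remained low, at under 10 TPM in all libraries. Zic2 rose by 1.67 and L1td1 by 1.78, while Pou3f1 (OCT6) fell by 1.02. Dppa4 fell to 1.51 and 1.13 TPM in AID-JARID2, against 10.7 and 8.68 TPM in SUZ12-AID and 9.03 and 7.66 TPM in MTF2-AID (log2 difference -2.11 ± 0.20 SE, adjusted p = 2.14e-05). Of the naive markers, Esrrb and Tcl1 did not reach the filter, Zfp42 lay between 0.665 and 1.43 TPM in every library, and Klf2 fell by 0.78. Dppa3, a gene of naive and germ cells, was listed at 0 in both AID-JARID2 libraries, against 1.16 and 1.14 TPM in SUZ12-AID and 0.616 and 0.586 TPM in MTF2-AID. Among 7 germline members tested none was higher and 5 were lower, among them the meiotic axis gene Sycp3 (-1.65), and 9 did not reach the filter. Of the lower ones, Sycp3, Mael, Piwil2 and Dppa3 were under 1 TPM in both AID-JARID2 libraries. They were tested only through the other lines, which favours lower calls, so this count says little.

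Paraxial mesoderm genes moved in both directions. Of 10 paraxial members, 4 were higher and 3 lower. Msgn1, the presomitic mesoderm factor whose promoter is shown above, had 185 and 185 TPM in AID-JARID2, against 15.7 and 25.1 TPM in SUZ12-AID and 5.33 and 14.4 TPM in MTF2-AID (log2 difference 3.70 ± 0.34 SE, adjusted p = 2.02e-05). The replicates of the other lines differed from each other by more than those of AID-JARID2, yet no library of theirs came near. Dll3, a Notch ligand gene of the segmentation clock, had 78.5 and 70.6 TPM in AID-JARID2, against 16 and 16.2 TPM in SUZ12-AID and 13.7 and 18.6 TPM in MTF2-AID (log2 difference 2.14 ± 0.11 SE, adjusted p = 3.91e-07), and Dll1 rose by 1.87. Foxc1, a forkhead factor of condensing somites and of the second heart field, fell to 5.16 and 3.95 TPM in AID-JARID2, against 11.9 and 14.4 TPM in SUZ12-AID and 27.8 and 27.4 TPM in MTF2-AID (log2 difference -1.86 ± 0.12 SE, adjusted p = 2e-06). Lfng, a Notch modifier gene of the segmentation clock, was also called lower, at 11.4 and 11.5 TPM in AID-JARID2, against 10.1 and 10.6 TPM in SUZ12-AID and 24.9 and 25.8 TPM in MTF2-AID (log2 difference -0.47 ± 0.09 SE, adjusted p = 0.00286). Both AID-JARID2 libraries lay above those of SUZ12-AID, so Lfng was lower than MTF2-AID only. Aldh1a2, given above, is a member as well and was higher, while Meox1, Tcf15 and Foxc2 were not called. Hes7, Pax1, Pax3, Pax9, Meox2 and Tbx18 did not reach the filter in these lines.

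Lateral plate genes were expressed in all 3 lines and showed no common direction, with 9 of 20 higher, 6 lower and a median of 0.09. Hand1, a factor of lateral plate and extraembryonic mesoderm, was abundant in every line with 1884 and 1832 TPM in the AID-JARID2 libraries, against 2291 and 2552 TPM in SUZ12-AID and 1369.7 and 1352 TPM in MTF2-AID libraries. AID-JARID2 thus lay between SUZ12-AID and MTF2-AID (log2 difference 0.03, adjusted p = 0.721). Tbx3 had 135 and 136 TPM in AID-JARID2, against 39.8 and 58.4 TPM in SUZ12-AID and 47.9 and 51 TPM in MTF2-AID (log2 difference 1.45 ± 0.12 SE, adjusted p = 1.24e-05), and the BMP-responsive Msx2 had 208 and 207 TPM in AID-JARID2, against 101.1 and 112 TPM in SUZ12-AID and 69.5 and 71.2 TPM in MTF2-AID (log2 difference 1.25 ± 0.08 SE, adjusted p = 1.49e-06). Foxf1, which marks splanchnic mesoderm, rose by 0.67. Irx3 fell to 16.2 and 13.8 TPM in AID-JARID2, against 76.4 and 77.8 TPM in SUZ12-AID and 42.3 and 42.2 TPM in MTF2-AID (log2 difference -1.86 ± 0.12 SE, adjusted p = 1.49e-06), and the limb and body wall factors Prrx1 and Osr1 fell at low levels.

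The label of the cells as cardiac precursors can be set against cardiac factors. Of 13 cardiac transcription factors tested, 2 were higher in AID-JARID2 and 5 lower. Gata4 was present throughout, at 89.3 and 88.1 TPM in AID-JARID2, against 57.9 and 68.9 TPM in SUZ12-AID and 66.4 and 66.9 TPM in MTF2-AID (log2 difference 0.45 ± 0.10 SE, adjusted p = 0.0047). Isl1, a second heart field factor, had 31.1 and 37.8 TPM in AID-JARID2, against 31.1 and 32.4 TPM in SUZ12-AID and 32.4 and 28.1 TPM in MTF2-AID, with overlapping groups. Nkx2-5, the factor most used to mark cardiac progenitors, was low in all lines at 1.47 and 1.65 TPM in AID-JARID2, against 2.77 and 1.73 TPM in SUZ12-AID and 6.5 and 5.06 TPM in MTF2-AID. Its log2 difference was -0.86 (adjusted p = 0.00291), carried by MTF2-AID, since the difference against SUZ12-AID alone was -0.33 (adjusted p = 0.24). Tbx5, which marks the first heart field, did not reach the filter. Mef2c, an early cardiac and endothelial factor, fell to 6.03 and 6.46 TPM in AID-JARID2, against 21.9 and 27 TPM in SUZ12-AID and 19.8 and 19.5 TPM in MTF2-AID (log2 difference -1.66 ± 0.10 SE, adjusted p = 1.07e-06). Myocd, the cardiac and smooth muscle coactivator gene, fell by 1.18.

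In the second heart field list, 5 of 14 were higher and 4 lower. Fgf10, a ligand gene of this field, had 30.4 and 32.3 TPM in AID-JARID2, against 5.61 and 8.5 TPM in SUZ12-AID and 8.7 and 10.3 TPM in MTF2-AID (log2 difference 1.83 ± 0.14 SE, adjusted p = 6.45e-06), and Six2 rose by 0.97. Tbx1, the pharyngeal T-box factor, fell by 0.90, and Tcf21, a pharyngeal and epicardial factor, fell by 1.46, both at low levels.

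Of the lists of differentiated derivatives, those of cardiomyocytes, endothelium and blood had mostly lower members and that of smooth muscle and epicardium was split. The cardiomyocyte contractile list had 1 of 16 members higher and 10 lower, the endothelial list 2 of 22 higher and 17 lower, and the primitive blood list 1 of 14 higher and 11 lower. Their medians were -0.72, -1.43 and -1.14 on the log2 scale, the last -1.03 with genes at 0 in both AID-JARID2 libraries set at 3 reads in each. The medians follow the pseudocount, at -1.41, -2.02 and -2.27 with 0.1 and -0.37, -0.60 and -0.59 with 5. Many lower members, such as Myh6, Sox18, Cd34, Icam2, Hba-x and Nfe2, were under 1 TPM in both AID-JARID2 libraries. They reached the filter only through the other lines, which favours lower calls. With no filter on low values, 11 of 22, 18 of 23 and 11 of 19 members were lower and 1, 2 and 1 higher. The medians were then -0.30, -1.38 and -0.99. With genes under 5 TPM left out the endothelial count was 10 and the blood count 7, since fewer members were tested. The smooth muscle and epicardium list had 4 of 9 higher and 4 lower. Its actin-binding protein genes Tagln and Cnn1 rose by 0.55 and 1.11 and the light chain gene Myl9 by 0.31, while the smooth muscle actin gene Acta2 fell by 1.10.

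Tnnt2 (chromosome 1, 135836354 to 135852260, plus strand), cardiac troponin T, had 22 and 17.2 TPM in the AID-JARID2 libraries, against 146 and 122 TPM in SUZ12-AID and 115 and 94.3 TPM in MTF2-AID libraries (log2 difference -2.54 ± 0.14 SE, adjusted p = 6.33e-07). Tnni1, the troponin I of embryonic heart and slow muscle, had 28.8 and 26.6 TPM in AID-JARID2, against 149.9 and 138 TPM in SUZ12-AID and 149 and 137 TPM in MTF2-AID (log2 difference -2.33 ± 0.09 SE, adjusted p = 6.34e-08). All AID-JARID2 libraries of both genes lay below the others. The intermediate filament gene Des fell by 1.55. The myosin heavy chain gene Myh6 was low everywhere, at 0.307 and 0.275 TPM in AID-JARID2, against 1.98 and 1.41 TPM in SUZ12-AID and 2.61 and 1.84 TPM in MTF2-AID. Nppa, Myl2, Myl3, Ttn, Pln and Mybpc3 did not reach the filter. Actc1, cardiac actin, was the exception that rose, at 48.5 and 44 TPM in AID-JARID2, against 20.1 and 19.8 TPM in SUZ12-AID and 15 and 7.88 TPM in MTF2-AID (log2 difference 1.58 ± 0.18 SE, adjusted p = 9.41e-05), and Myl7, the atrial light chain gene, had overlapping groups (adjusted p = 0.787).

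The endothelial list did not move as one. Kdr, the VEGF receptor gene that already marks nascent mesoderm, was higher at 127 and 127 TPM in AID-JARID2, against 36.7 and 53.9 TPM in SUZ12-AID and 68.9 and 71.4 TPM in MTF2-AID (log2 difference 1.17 ± 0.13 SE, adjusted p = 8.05e-05), with the SUZ12-AID replicates far apart. Etv2, the pioneer factor of the blood and endothelial lineage, had overlapping groups at 11.7 and 14.6 TPM in AID-JARID2, against 12.8 and 13.9 TPM in SUZ12-AID and 10.7 and 11.8 TPM in MTF2-AID (not called, adjusted p = 0.605). Cdh5 (chromosome 8, 104101625 to 104144511, plus strand), VE-cadherin, had 1.24 and 0.641 TPM in AID-JARID2, against 4.95 and 8.31 TPM in SUZ12-AID and 12.5 and 14.4 TPM in MTF2-AID (log2 difference -2.43 ± 0.19 SE, adjusted p = 6.94e-06). Sox18 had 0.595 and 0.533 TPM in AID-JARID2, against 3.75 and 7.74 TPM in SUZ12-AID and 14.6 and 12.7 TPM in MTF2-AID (log2 difference -2.64 ± 0.23 SE, adjusted p = 1.45e-05), and Pecam1 (CD31) had 18 and 20.6 TPM in AID-JARID2, against 78 and 89.6 TPM in SUZ12-AID and 57.3 and 54.5 TPM in MTF2-AID (log2 difference -1.78 ± 0.10 SE, adjusted p = 7.12e-07). In these genes every AID-JARID2 library lay below all others, and the highest levels were in MTF2-AID for Cdh5 and Sox18 but in SUZ12-AID for Pecam1. Tie1, Cd34 and Eng were lower, with log2 differences of -2.49, -2.17 and -1.66. Icam2 was at 0.245 and 0 TPM in AID-JARID2, against 3.26 and 2.85 TPM in SUZ12-AID and 8.01 and 8.38 TPM in MTF2-AID, with the AID-JARID2 values resting on 2 and 0 reads.

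Embryonic globin transcripts were close to 0 in AID-JARID2. Hbb-bh1 (chromosome 7, 103841637 to 103843164, minus strand), an embryonic beta-like globin, had 0.947 and 0.354 TPM in the AID-JARID2 libraries, against 41.2 and 27.7 TPM in SUZ12-AID and 5.78 and 3.54 TPM in MTF2-AID libraries, which rest on 3 and 1 reads in AID-JARID2, 186 and 109 in SUZ12-AID and 14 and 9 in MTF2-AID. Its log2 difference was -3.10 (adjusted p = 6.53e-05), a value that depends on the pseudocount at such depth, and SUZ12-AID libraries were also above MTF2-AID ones. Hba-x and Hbb-y, the other embryonic globins, were listed at 0 in both AID-JARID2 libraries, against 6.52 and 6.44 TPM for Hba-x in SUZ12-AID and 2.51 and 1.2 TPM in MTF2-AID. For Hbb-y the levels were 3.49 and 4 TPM in SUZ12-AID and 0.814 and 0 TPM in MTF2-AID, so 1 MTF2-AID library was at 0 too and AID-JARID2 was not called against MTF2-AID (adjusted p = 0.231). Hba-a1 had 1.03 and 1.93 TPM in AID-JARID2, against 30.9 and 14.4 TPM in SUZ12-AID and 10.4 and 6.86 TPM in MTF2-AID, but its near-identical copy Hba-a2 makes the split of reads between them uncertain. Itga2b (CD41), which marks the first blood progenitors, fell to 2.18 and 2.14 TPM in AID-JARID2, against 13.8 and 14.5 TPM in SUZ12-AID and 18.2 and 17.7 TPM in MTF2-AID (log2 difference -2.42 ± 0.10 SE, adjusted p = 9.43e-08). Gata2 fell by 1.04. Tal1 was not called (adjusted p = 0.201). Runx1, the factor of definitive blood, was the member that rose (0.72, adjusted p = 0.0114), a call lost without either AID-JARID2 replicate. Klf1 and Spi1 did not reach the filter.

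**Figure D2:**
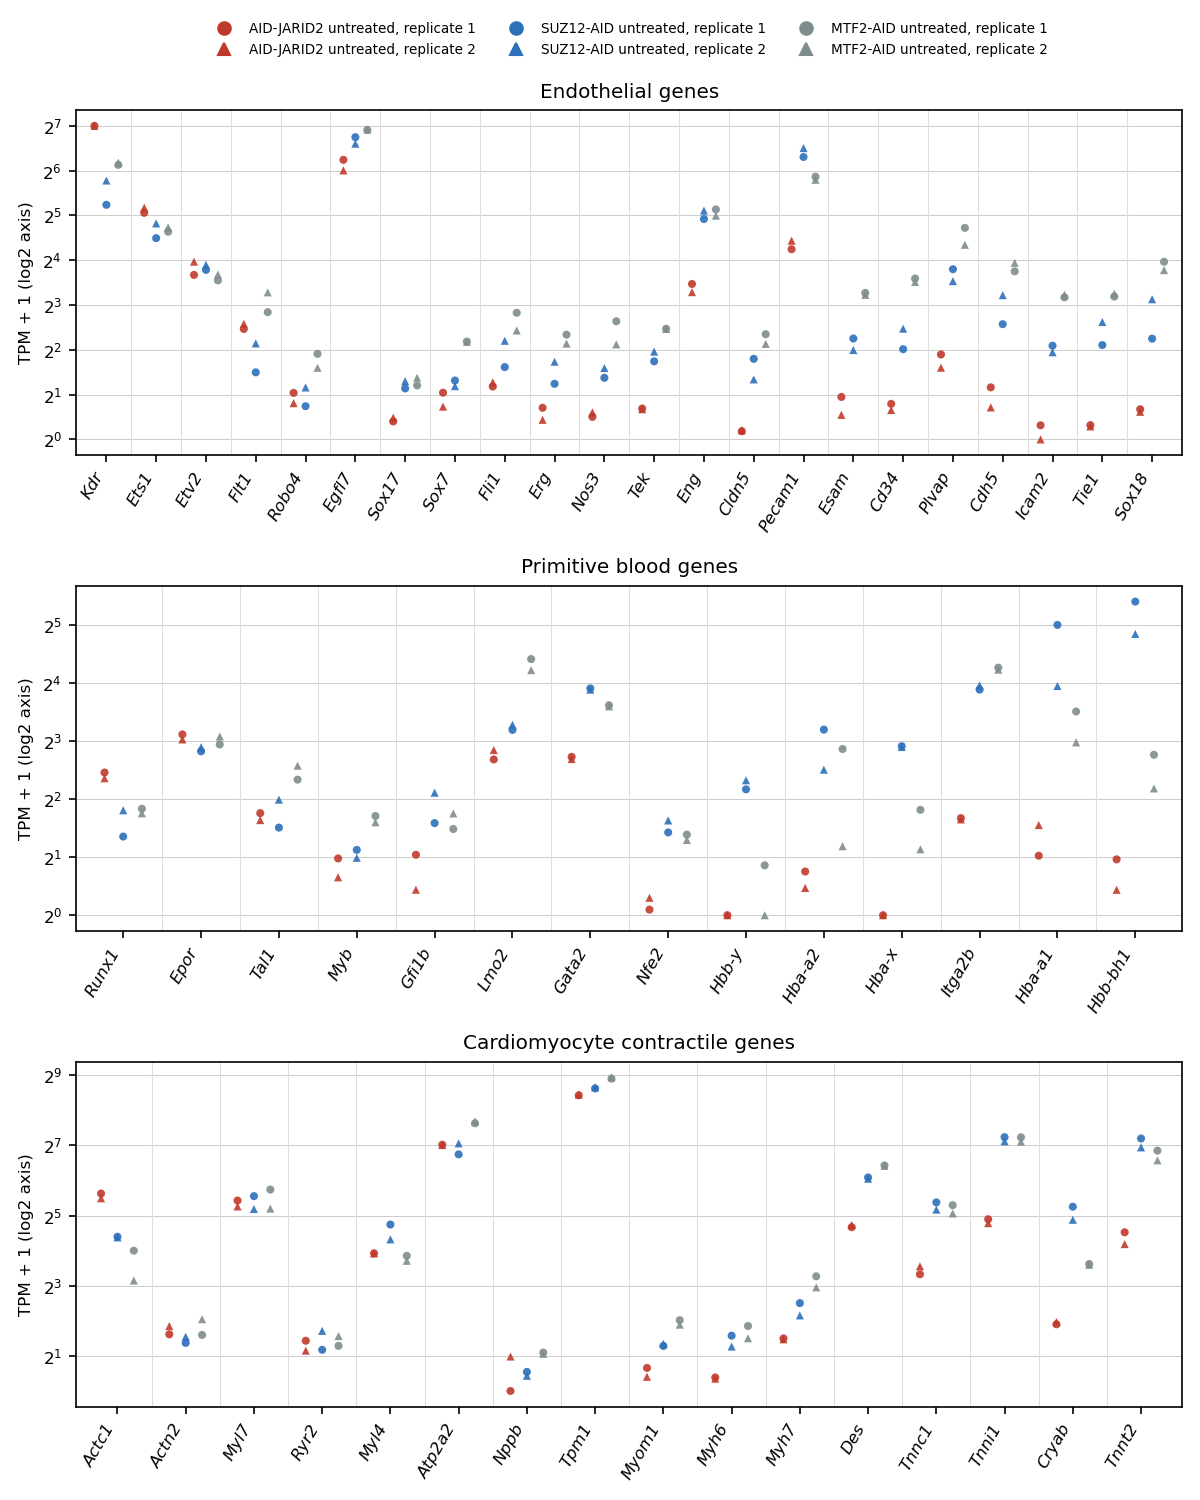
Levels of cardiac contractile, endothelial and blood genes in the 6 untreated libraries, in TPM + 1 on a log2 axis, 1 point a library, AID-JARID2 left of SUZ12-AID and MTF2-AID. Tnnt2 lies at 22 and 17.2 TPM in AID-JARID2, below the other 4, and Kdr lies above them.

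The allantois and extraembryonic mesoderm list also had mostly lower members, with 3 of 14 higher, 9 lower and a median of -0.98 (-0.52 with a pseudocount of 5). With no filter on low values 3 of 16 were higher and 8 lower, with a median of -0.745. Pitx1, a homeobox factor of hindlimb and ventral mesoderm, had 6 and 6.32 TPM in AID-JARID2, against 31.4 and 29.9 TPM in SUZ12-AID and 39.3 and 48.9 TPM in MTF2-AID (log2 difference -2.40 ± 0.17 SE, adjusted p = 3.19e-06). Tbx4, the T-box factor of allantois and hindlimb, had 1.02 and 0.572 TPM in AID-JARID2, against 5.13 and 4.99 TPM in SUZ12-AID and 10.1 and 6.72 TPM in MTF2-AID (log2 difference -2.07 ± 0.20 SE, adjusted p = 2.45e-05). The AID-JARID2 libraries were below all others in both genes. The imprinted pair H19 and Igf2 made up most of this list's level, with H19 at 2506 and 2616 TPM in AID-JARID2, against 4706 and 4538 TPM in SUZ12-AID and 5893 and 5809 TPM in MTF2-AID and a log2 difference of -1.02, and Igf2 with a difference of -0.93. Pmp22 was an exception that rose, by 1.5 on the log2 scale. Among 25 imprinted genes 6 were higher and 12 lower. Phlda2, which restrains placental growth, rose to 1280.2 and 1310.4 TPM in AID-JARID2, against 410.0 and 435 TPM in SUZ12-AID and 317 and 359 TPM in MTF2-AID (log2 difference 1.78 ± 0.08 SE, adjusted p = 2.34e-07), while Nnat fell by 1.94 and Dlk1 fell by 1.63.

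Epithelial genes moved in both directions, whereas mesenchymal genes were more often lower. Of 18 epithelial members, 7 were higher and 6 lower (median 0.13), and of 19 mesenchymal members, 4 were higher and 11 lower (median -0.39). E-cadherin (Cdh1) had 62.2 and 54.8 TPM in AID-JARID2, against 34.8 and 36.7 TPM in SUZ12-AID and 31.5 and 28.5 TPM in MTF2-AID (log2 difference 0.82 ± 0.12 SE, adjusted p = 0.00051), and Epcam rose by 1.41. N-cadherin (Cdh2), which replaces E-cadherin in mesoderm, had 64.8 and 66.5 TPM in AID-JARID2, against 17.2 and 25.6 TPM in SUZ12-AID and 30.3 and 32.6 TPM in MTF2-AID (log2 difference 1.32 ± 0.14 SE, adjusted p = 4.52e-05). Both the epithelial and the mesodermal cadherin were thus higher in AID-JARID2. Fn1, fibronectin, reached 1538 and 1616 TPM in AID-JARID2, against 285 and 450.2 TPM in SUZ12-AID and 422 and 465 TPM in MTF2-AID (log2 difference 1.98 ± 0.15 SE, adjusted p = 6.09e-06). Vimentin (Vim) fell to 950.0 and 939 TPM in AID-JARID2, against 1584 and 1638 TPM in SUZ12-AID and 1671 and 1646 TPM in MTF2-AID, and Tgfbi fell by 2.46. Twist1 and Zeb2 were not called.

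The largest decrease of all named genes was that of Cldn4 (chromosome 5, 134945119 to 134946934, minus strand), a tight junction claudin. It had 9.56 and 10.2 TPM in the AID-JARID2 libraries, against 193 and 173 TPM in SUZ12-AID and 137 and 117 TPM in MTF2-AID libraries (log2 difference -3.81 ± 0.10 SE, adjusted p = 6.73e-09). P-cadherin (Cdh3) fell by 1.45, and the keratin gene Krt7, low in all lines, fell by 1.77. Cldn3, the neighbouring claudin gene, fell by 2.59. Gpnmb, a membrane glycoprotein gene, had 0.862 and 0.455 TPM in AID-JARID2, against 22.3 and 24.1 TPM in SUZ12-AID and 21.4 and 17.4 TPM in MTF2-AID (log2 difference -3.75 ± 0.15 SE, adjusted p = 9.43e-08), and Zfp750, a factor of epidermal differentiation, had 0.772 and 1.06 TPM in AID-JARID2, against 14.8 and 16.2 TPM in SUZ12-AID and 20.3 and 18 TPM in MTF2-AID (log2 difference -3.25 ± 0.15 SE, adjusted p = 2.13e-07). In the other direction and outside the lists, Igfbp3, an insulin-like growth factor binding protein gene, had 229 and 222 TPM in AID-JARID2, against 30.9 and 26.5 TPM in SUZ12-AID and 20.3 and 23.8 TPM in MTF2-AID (log2 difference 3.12 ± 0.08 SE, adjusted p = 6.73e-09). Gjb2, a connexin gene, had 11.1 and 12.8 TPM in AID-JARID2, against 0.618 and 0.322 TPM in SUZ12-AID and 0.629 and 0.997 TPM in MTF2-AID (log2 difference 3.00 ± 0.22 SE, adjusted p = 4.14e-06).

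Hox genes are turned on in the order of their paralog numbers as the streak ages, the lowest numbers first. In AID-JARID2, paralogs 1 to 4 had 3 of 8 members higher and 2 lower, and paralogs 5 to 9 had none of 10 higher and 8 lower with a median of -0.96 (-1.72 with a pseudocount of 0.1 and -0.43 with 5). Hoxb1 (chromosome 11, 96365752 to 96368256, plus strand) had 75.4 and 77.1 TPM in the AID-JARID2 libraries, against 7.53 and 8.42 TPM in SUZ12-AID and 8.97 and 11.2 TPM in MTF2-AID libraries (log2 difference 2.96 ± 0.12 SE, adjusted p = 1.06e-07). Hoxb2 rose by 0.79. In the same group Hoxd3 and Hoxd4 were called lower, with MTF2-AID far above the other 2 lines. Hoxd3 had 0.332 and 0.521 TPM in AID-JARID2, against 0.558 and 1.07 TPM in SUZ12-AID and 5.47 and 5.04 TPM in MTF2-AID. Hoxd4 had 3.08 and 1.94 TPM in AID-JARID2, which overlapped SUZ12-AID (2.43 and 4.05 TPM), against 8.95 and 10.6 TPM in MTF2-AID. Hoxb8 (chromosome 11, 96281905 to 96285315, plus strand), on the same cluster as Hoxb1, had 2.22 and 1.24 TPM in AID-JARID2, against 8.24 and 7.03 TPM in SUZ12-AID and 13.1 and 16 TPM in MTF2-AID (log2 difference -2.10 ± 0.18 SE, adjusted p = 9.94e-06). Hoxb6 had 5.44 and 5.59 TPM in AID-JARID2, against 15.9 and 18.1 TPM in SUZ12-AID and 22.7 and 25.7 TPM in MTF2-AID (log2 difference -1.70 ± 0.15 SE, adjusted p = 1.46e-05). For Hoxb9 the levels were 0.499 and 0.32 TPM in AID-JARID2, against 2.05 and 2.58 TPM in SUZ12-AID and 8.77 and 9.32 TPM in MTF2-AID (log2 difference -2.03 ± 0.13 SE, adjusted p = 2.01e-06).

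Against MTF2-AID alone 10 of 10 paralog 5 to 9 members were lower, where 18.6% of all genes were, and against SUZ12-AID alone 6 of 10, where 13.3% were. Hoxb9, Hoxc6, Hoxc8 and Hoxc9 were under 1 TPM in both AID-JARID2 libraries and reached the filter only through other lines, which favours lower calls. For Hoxc6 and Hoxc9 this was MTF2-AID alone, so the filter set their direction against that line. With no filter on low values, 10 of 15 members were lower against both lines together and none higher. The count against both lines together was 3 when genes under 5 TPM were left out, since most of these genes lie below that level. Hoxd9 was not called (adjusted p = 0.311), nor was Hoxb7 (adjusted p = 0.0531). Among 4 tested members of paralogs 10 to 13, Hoxa13 rose by 1.18 and Hoxc13 was listed at 0 in both AID-JARID2 libraries, against 3.83 and 3.88 TPM in SUZ12-AID and 4.45 and 4.14 TPM in MTF2-AID.

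**Figure D3:**
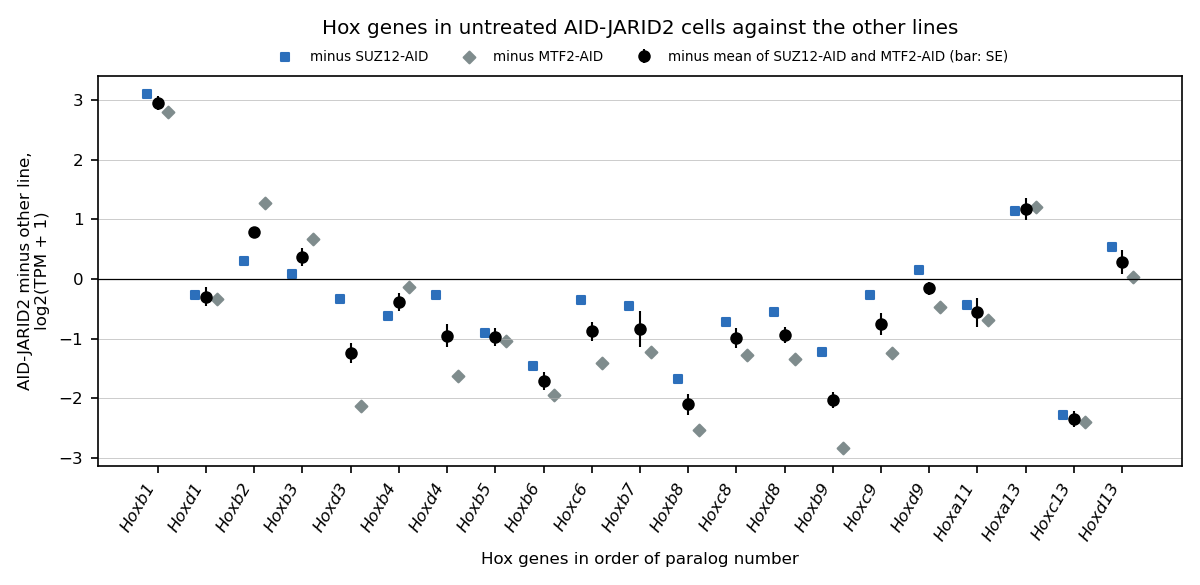
Differences of Hox genes in order of paralog number, in log2(TPM + 1) units: black points with SE bars give AID-JARID2 minus the mean of the other lines, blue squares AID-JARID2 minus SUZ12-AID and grey diamonds AID-JARID2 minus MTF2-AID. Hoxb1 lies at 2.96 and Hoxb8 at -2.10 against the mean of the other lines.

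Genes of growth, metabolism and stress also separated AID-JARID2 from the other lines. The proliferation list had 13 of 22 members higher and none lower, by small amounts (median 0.21). Ccnb2, a mitotic cyclin gene, had 288 and 298 TPM in AID-JARID2, against 212 and 213 TPM in SUZ12-AID and 181 and 188 TPM in MTF2-AID (log2 difference 0.56 ± 0.04 SE, adjusted p = 6.79e-06). The list of p53 targets and cell-cycle inhibitors had 1 of 18 higher and 14 lower, with a median of -0.74. Cdkn1a (p21) had 74 and 71.7 TPM in AID-JARID2, against 150.5 and 141 TPM in SUZ12-AID and 153 and 153 TPM in MTF2-AID (log2 difference -1.03 ± 0.05 SE, adjusted p = 2.13e-07). Cdkn2a, which codes for p16 and ARF and is a classic Polycomb target, had 2.2 and 2.09 TPM in AID-JARID2, against 5.59 and 7.49 TPM in SUZ12-AID and 12.4 and 12.2 TPM in MTF2-AID (log2 difference -1.67 ± 0.15 SE, adjusted p = 1.89e-05). Its neighbour Cdkn2b (p15) was at 0 and 0.155 TPM in AID-JARID2, against 5.23 and 5.11 TPM in SUZ12-AID and 4.7 and 3.27 TPM in MTF2-AID, the AID-JARID2 values resting on 0 and 1 reads. The pro-apoptotic p53 target Bbc3 (PUMA) fell by 1.26.

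Glycolysis and hypoxia genes rose, 15 of 19 against 1 lower, with a median of 0.70. Ldha, lactate dehydrogenase A, had 2343 and 2498 TPM in AID-JARID2, against 919 and 876 TPM in SUZ12-AID and 1035 and 1122 TPM in MTF2-AID (log2 difference 1.30 ± 0.04 SE, adjusted p = 3.38e-08). Bnip3, a hypoxia-induced mitophagy gene, rose by 2.01. The member that fell was Ndrg1, itself hypoxia-induced but also linked to differentiation, at 19.8 and 19.8 TPM in AID-JARID2, against 79 and 88.8 TPM in SUZ12-AID and 76.5 and 60.1 TPM in MTF2-AID (log2 difference -1.88 ± 0.11 SE, adjusted p = 1.33e-06). Genes of the amino acid stress response fell in 12 of 15 members. Ddit3 (CHOP) was at 4.13 and 5.48 TPM in AID-JARID2, against 15.9 and 13.4 TPM in SUZ12-AID and 24.7 and 23 TPM in MTF2-AID (log2 difference -1.77 ± 0.13 SE, adjusted p = 4.96e-06), and Nupr1 was listed at 0 in both AID-JARID2 libraries, against 8.41 and 4.45 TPM in SUZ12-AID and 6.84 and 3.45 TPM in MTF2-AID. Of 15 immediate early and heat shock genes, 2 were higher and 8 lower, with the serum-response gene Egr1 among the lower ones (log2 difference -1.64). Housekeeping genes split evenly, 6 of 19 higher and 6 lower, with a median of 0.03, and of 18 cholesterol synthesis genes 6 were higher and none lower.

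Of 11 PRC2 members, 2 were higher and 2 lower (36.4% called), and of 19 PRC1 members, 1 was higher and 2 lower (15.8% called), against 37.1% of all genes called. The PRC2 share was thus that of the background, and the PRC1 share was below it. The catalytic subunit gene Ezh2 had 119 and 130.0 TPM in AID-JARID2, against 128 and 131 TPM in SUZ12-AID and 113 and 117 TPM in MTF2-AID and overlapping groups (adjusted p = 0.75). Bmi1, a PRC1 subunit gene, fell to 5.13 and 5.2 TPM in AID-JARID2, against 6.51 and 6.79 TPM in SUZ12-AID and 15.4 and 13.9 TPM in MTF2-AID (log2 difference -0.83 ± 0.09 SE, adjusted p = 6.89e-05).

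Markers of other cell types that such a culture could hold were checked. Of the endoderm list, Foxa1, Foxa2, Hnf4a, Afp and Ttr did not reach the filter, 7 members were tested, and 3 were higher and 2 lower. Sox17, of definitive endoderm and haemogenic endothelium, was at 0.321 and 0.4 TPM in AID-JARID2, against 1.2 and 1.46 TPM in SUZ12-AID and 1.31 and 1.6 TPM in MTF2-AID. Of 14 trophoblast and placenta members tested, 4 were higher (Eomes, Peg10, Phlda2 and Gata3) and 6 lower (Cdx2, Tfap2c, Ascl2, Krt7, Gata2 and Wnt7b), several of them also mesoderm genes, and Elf5, Gcm1, Prl3d1 and Tpbpa did not reach the filter. Of 10 neural members tested, 4 were higher and 3 lower, and the neural plate factors Sox1 and Pax6 did not reach the filter. Stmn2, a neuronal tubulin-binding protein gene, was higher at 31.1 and 30.5 TPM in AID-JARID2, against 11.3 and 10.5 TPM in SUZ12-AID and 10.4 and 9.06 TPM in MTF2-AID (log2 difference 1.49 ± 0.09 SE, adjusted p = 1.05e-06). Of 12 neural crest members, 3 were higher and 3 lower, with Sox9 lower (log2 difference -1.36) and Sox10 near or below 1 TPM in all libraries. The filter being 1 TPM in at least 2 libraries, the markers named as not reaching it were at under 1 TPM in all or all but 1 of the 6 libraries. The part of such cells in the results above was not tested.

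**Figure D4:**
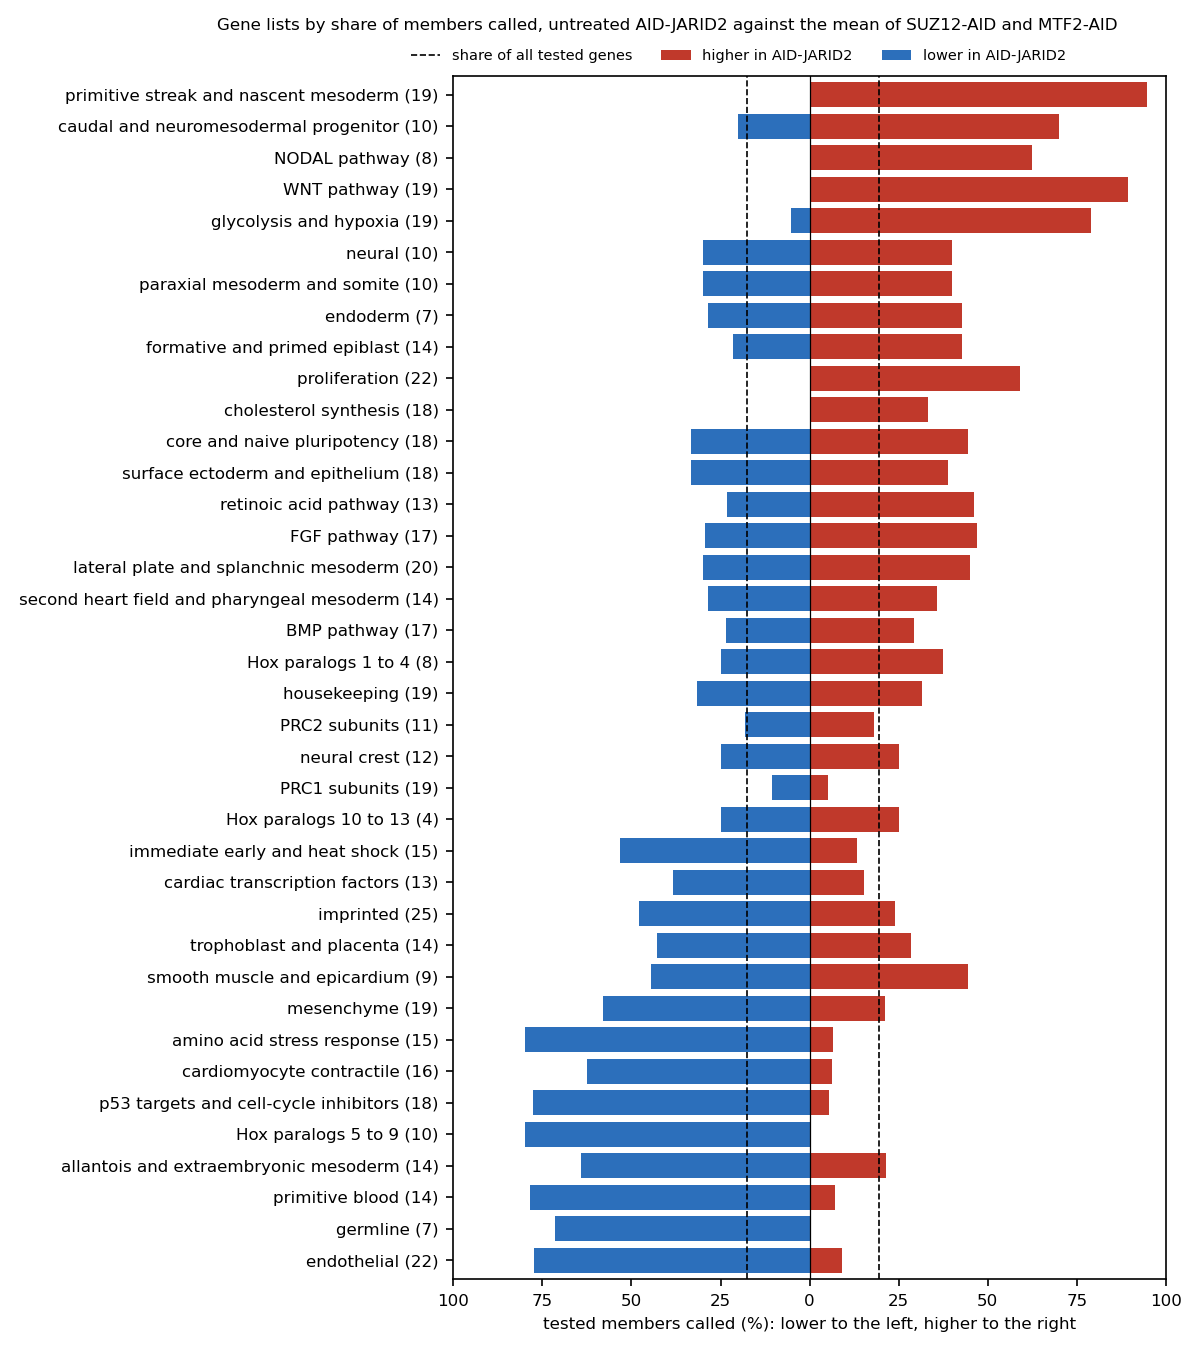
Number of tested members of each gene list called higher or lower in AID-JARID2 against the mean of SUZ12-AID and MTF2-AID, as a share of the members tested in percent, beside the share over all 13761 genes. The streak and WNT lists are called higher almost throughout, and the endothelial, blood and contractile lists mostly lower.

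The difference between the other 2 untreated lines gives a scale for these results. MTF2-AID against SUZ12-AID had 1370 genes called (9.96%), 871 higher (6.33%) and 499 lower (3.63%), whereas AID-JARID2 had 4165 called (30.3%) against SUZ12-AID and 4943 (35.9%) against MTF2-AID. The median absolute log2 difference over all genes was 0.169 between MTF2-AID and SUZ12-AID, 0.223 between AID-JARID2 and SUZ12-AID and 0.241 between AID-JARID2 and MTF2-AID. The called genes of MTF2-AID against SUZ12-AID were 63.6% higher in MTF2-AID, and 51.1% under median-of-ratios scaling. Those of AID-JARID2 against SUZ12-AID were 55.9% higher in AID-JARID2, and 45.7% under that scaling, so these balances follow the scaling. The count for MTF2-AID against SUZ12-AID also rests on single libraries, at 4047 without SUZ12-AID replicate 2, 826 without SUZ12-AID replicate 1, 535 without MTF2-AID replicate 1 and 537 without MTF2-AID replicate 2.

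MTF2-AID and SUZ12-AID were close at the streak genes, with a median of -0.06 over the list, and list medians between them ran in both directions elsewhere. The median MTF2-AID minus SUZ12-AID difference was 0.78 over the endothelial list, 0.78 over Hox paralogs 5 to 9, 0.78 over the neural list and -0.21 over the blood list, against 0.07 over all genes. It was 0.49 over the paraxial, 0.35 over the formative epiblast and 0.32 over the caudal list, and 0.18 over the contractile, 0.08 over the cardiac factor and -0.13 over the smooth muscle list. Nkx1-2 had 51 and 60.6 TPM in MTF2-AID, against 10.0 and 13.4 TPM in SUZ12-AID (log2 difference 2.17 ± 0.19 SE, adjusted p = 0.000334). Hoxb9 had 8.77 and 9.32 TPM in MTF2-AID, against 2.05 and 2.58 TPM in SUZ12-AID (log2 difference 1.60 ± 0.16 SE, adjusted p = 0.000454), and Cdx2 had 427 and 439 TPM in MTF2-AID, against 234 and 212 TPM in SUZ12-AID (log2 difference 0.95 ± 0.12 SE, adjusted p = 0.00118). Nkx1-2, Hoxb9 and Cdx2 were thus higher in MTF2-AID, but other caudal genes were higher in SUZ12-AID, among them Wnt5b, Fgf3 and Cdx4. Cdx4, on X and so not tested, had 0.632 and 0.601 TPM in MTF2-AID, against 3.3 and 4.95 TPM in SUZ12-AID. Hbb-bh1 had 5.78 and 3.54 TPM in MTF2-AID, against 41.2 and 27.7 TPM in SUZ12-AID (log2 difference -2.65 ± 0.39 SE, adjusted p = 0.00305), and Hand1 had 1369.7 and 1352 TPM in MTF2-AID, against 2291 and 2552 TPM in SUZ12-AID (log2 difference -0.83 ± 0.08 SE, adjusted p = 0.000403), so both genes were higher in SUZ12-AID. The median difference was -0.16 over the lateral plate list, which holds Hand1. Over the allantois and extraembryonic mesoderm list, which does not, it was 0.18, so that list did not follow Hand1.

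**Figure D5:**
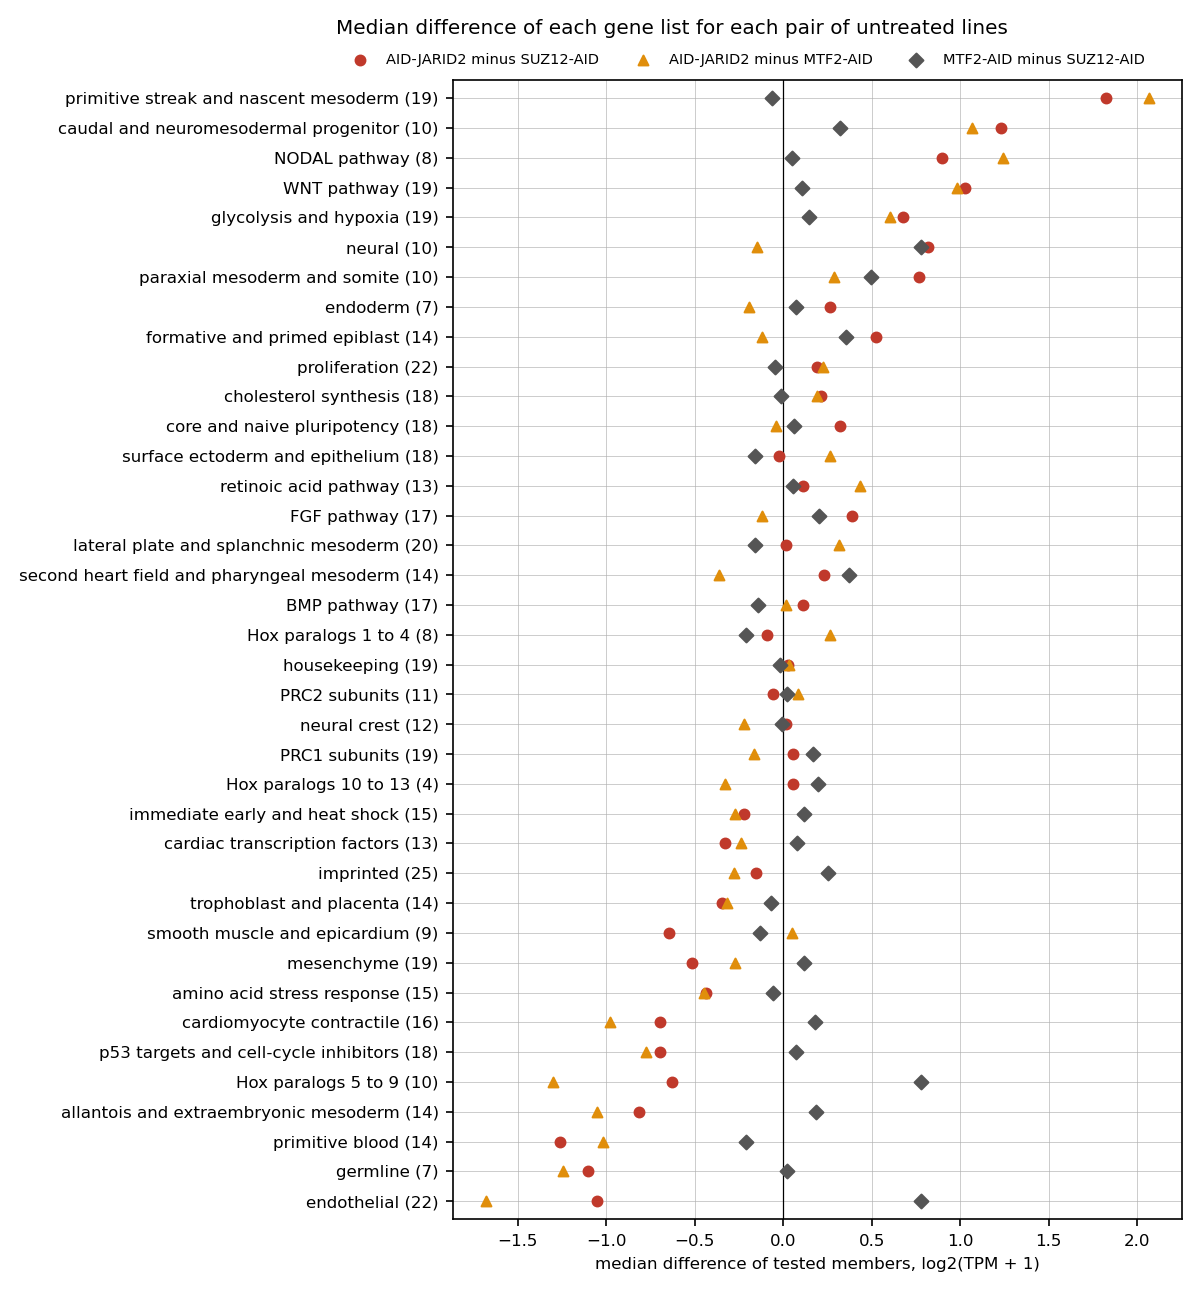
Median log2 difference of each gene list for AID-JARID2 minus SUZ12-AID, AID-JARID2 minus MTF2-AID and MTF2-AID minus SUZ12-AID, in log2(TPM + 1) units. The streak list lies at 1.82 and 2.07 for AID-JARID2 against the other lines and near 0 between MTF2-AID and SUZ12-AID.

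Over whole lists, the order of the lines differed from list to list. The summed level of the endothelial list was 290.4 and 284 TPM in the AID-JARID2 libraries, against 335 and 377 TPM in SUZ12-AID and 441 and 431 TPM in MTF2-AID libraries. That of the contractile list was 673 and 663 TPM in the AID-JARID2 libraries, against 1045 and 1009 TPM in SUZ12-AID and 1176 and 1129 TPM in MTF2-AID libraries, and that of Hox paralogs 5 to 9 was 29.5 and 26 TPM in the AID-JARID2 libraries, against 49.6 and 52.7 TPM in SUZ12-AID and 89.6 and 94.3 TPM in MTF2-AID libraries. AID-JARID2 libraries were thus lowest in these lists and highest in the streak list, with no overlap between lines in these 3 lists. In all 3 lines Hand1 and Gata4 were high, Nkx2-5 was low and Tbx5 did not reach the filter. No embryo reference was used, so the stage words come from the gene lists alone.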

How the data were processed

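The authors deposited a table of TPM values for 35856 gene symbols in 12 libraries, made with STAR 2.6.1d on mm10 per the submitters' processing notes; the sources used here name no counting tool or annotation. Symbols listed more than once (4 rows) were left out. Of 14586 genes that reached 1 TPM or more in 2 or more untreated libraries, 303 had no position and 522 were on X or Y; the 13761 others were tested. Whole reads were recovered from the steps of the TPM values (100% of values within 0.001 of a whole read). TPM keeps no depth of its own, and each gene's level is relative to all others.

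limma 3.58.1 (R 4.3.3) was run on log2(TPM + 1) over 12 libraries with 1 term per group, a trended prior and 6 residual degrees of freedom, two-sided, with Benjamini-Hochberg adjustment at 0.05. A fold change on this scale understates the change of low genes. Python 3.11.15, pandas 2.3.3, numpy 2.4.6 and matplotlib 3.10.9 were used for the other steps.

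Described were Suz12, Mtf2 and Jarid2; the 14 largest increases and decreases among called genes with groups apart and a mean of at least 5 TPM; up to 5 per direction for single-line comparisons; and, for each of 38 gene lists, up to 4 called members per direction and the 3 most abundant. Members and lists were chosen with earlier results of these data known, and genes named outside this rule, such as Gsc, Etv2, Sox2, Myl7, Myh6, Nkx2-5, Lhx1, Otx2 and Cdkn1a, after their values were seen. Some list members are counted but not reported by name here. Positions are from GENCODE vM21 on mm10. Alternatives were other pseudocounts, filters, scalings, the 6 untreated libraries alone, weights per line, a replicate block, all chromosomes and leaving out each replicate.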

Additional observations from a re-analysis of the deposited data

How the results depend on the processing

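The main comparison gave 5110 called genes, and between 3886 and 5888 under the 10 alternatives that keep every untreated library. Leaving out each replicate in turn gave 3030 to 6218, with 1490 to 3723 higher and 1540 to 2874 lower; the lowest counts came without an AID-JARID2 replicate, where the lone library is assumed to vary like the other groups. Counts of at least 2-fold changes followed the pseudocount, with 589 higher and 888 lower at 0.1 and 155 and 147 at 5, and 327 lower with genes under 5 TPM left out, where fewer genes were tested. That filter also left 10 endothelial, 7 blood and 3 Hox paralog 5 to 9 members called lower. With the 6 untreated libraries only, AID-JARID2 against SUZ12-AID gave 2752 called genes and MTF2-AID against SUZ12-AID gave 491, and with a variance weight per line the last gave 839; the cause was not tested. Over single replicates left out, AID-JARID2 against SUZ12-AID gave 2298 to 5452, AID-JARID2 against MTF2-AID 3315 to 5821 and MTF2-AID against SUZ12-AID 535 to 4047. Log2 differences ran between 0.37 and 0.56 for Jarid2, 0.29 and 0.45 for Mtf2 and -0.41 and -0.30 for Suz12.

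Under quantile normalization Actb (0.0483, adjusted p = 0.377) and Rplp0 (0.0308, adjusted p = 0.549) changed sign, both being lower in AID-JARID2 in the main fit; the cause was not tested. The streak list kept 18 members called higher with each replicate left out and 16 to 19 under the other alternatives, and the WNT list 16 to 18 under all of them. Of 309 genes checked, 272 were called, and 229 of these kept the call under all 16 alternatives. Rbp4 lost it under 8, Hspa1a and Polr2a under 7, and Kdm2b under 6.

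The labels do not say whether libraries with the same replicate number belong together. Across genes, the correlation of the replicate 1 minus replicate 2 deviations was 0.0665 between AID-JARID2 and SUZ12-AID, 0.0062 between AID-JARID2 and MTF2-AID and 0.101 between SUZ12-AID and MTF2-AID. Low correlations over all genes cannot exclude an effect shared by libraries with the same number. With the number as a replicate block the main comparison gave 5387 called genes, AID-JARID2 against SUZ12-AID 4494, AID-JARID2 against MTF2-AID 5146 and MTF2-AID against SUZ12-AID 1558. Each count was above that of the main fit. With 2 libraries a line, a change in a low gene such as a globin rests on a few reads.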

Other observations

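A few interferon-induced or interferon-regulated genes were looked at outside the lists. They were chosen after their values were seen, and no list of interferon genes was counted. Irf1, an interferon regulatory factor gene, had 143 and 146 TPM in AID-JARID2, against 29.5 and 32.1 TPM in SUZ12-AID and 21.3 and 22.8 TPM in MTF2-AID (log2 difference 2.43 ± 0.09 SE, adjusted p = 7.15e-08). Gbp2, an interferon-induced GTPase gene, had 93.7 and 94.4 TPM in AID-JARID2, against 24.7 and 23.8 TPM in SUZ12-AID and 16.4 and 16.2 TPM in MTF2-AID (log2 difference 2.18 ± 0.08 SE, adjusted p = 5.88e-08), and the immunity-related GTPase gene Irgm2 had 14.9 and 13.3 TPM in AID-JARID2, against 2.08 and 2.33 TPM in SUZ12-AID and 2.87 and 2.46 TPM in MTF2-AID (log2 difference 2.14 ± 0.14 SE, adjusted p = 1.92e-06). The antigen-processing gene Tapbpl rose by 2.10 and Parp9 rose by 2.35. For each of them both AID-JARID2 libraries lay above the other 4.

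The 6 auxin-treated libraries of the same lines are separate samples with the same labels for genotype. With auxin, T had 501 and 517 TPM in AID-JARID2, against 40.3 and 51.2 TPM in SUZ12-AID and 43.7 and 44 TPM in MTF2-AID. Mixl1 had 200.5 and 179 TPM in AID-JARID2, against 6.96 and 9.63 TPM in SUZ12-AID and 13 and 11.4 TPM in MTF2-AID, and Eomes had 180.3 and 169 TPM in AID-JARID2, against 13.7 and 19 TPM in SUZ12-AID and 15.5 and 15.3 TPM in MTF2-AID. In all 3 genes both AID-JARID2 libraries lay above all others, as without auxin. Tnnt2 with auxin had 2.72 and 2.81 TPM in AID-JARID2, against 226 and 166 TPM in SUZ12-AID and 107 and 111 TPM in MTF2-AID. These libraries share a fit with the untreated ones, and the auxin-treated lines were not compared by a test.

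Genes of chromosome 16 were slightly higher in AID-JARID2, with a median log2 difference of 0.17 over 433 genes, against a median of 0.03 over all genes. Of these 433 genes, 167 (38.6%) were called higher and 38 (8.78%) lower, against 19.4% and 17.7% of all genes. Genes of chromosome 5 differed between the other lines, with a median MTF2-AID minus SUZ12-AID difference of 0.25 over 914 genes, against 0.07 over all genes.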
